A study of Mus musculus with 77 samples.

Results

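The miR-99/100 family and the miR-125 family were followed through AGO2-bound small RNAs of a brain region, the bed nucleus of the stria terminalis, abbreviated BNST, and through small RNAs of blood, in mice after chronic social defeat stress (CSDS). The members were chosen by name and were 6 mature miRNAs, namely mmu-miR-99a-5p, mmu-miR-99b-5p, mmu-miR-99b-3p, mmu-miR-100-5p, mmu-miR-125a-5p and mmu-miR-125b-5p (written below without the prefix of the mouse), of 847 miRNA names across both tables. In the BNST table they filled 7 of 788 rows, because miR-125b-5p has a row for each of its 2 gene copies. The blood table held 4 of them in 4 of 299 rows. Blood miR-99b-3p and miR-125b-5p were not analysed here.

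All animals were male, and tissue was taken 6 to 8 days after the last session of defeat, at 8 weeks of age. The BNST came from mice labelled C57BL/6Crl (B6, written C57BL/6NCrl in the study's methods), with the BNST of 3 mice joined in each pool, and the AGO2 protein was pulled down with the RNA it held. The BNST miRNA libraries were 5 control pools of mice housed beside another control mouse in place of an aggressor, 5 pools of defeated mice labelled resilient and 3 pools of defeated mice labelled susceptible. Resilient and susceptible mice were chosen by the study from the extremes of a social avoidance test. Blood came from single mice, 5 in each group of B6 control, B6 resilient, B6 susceptible, DBA/2Crl (D2, DBA/2NCrl in the methods) control and D2 susceptible. Matching mRNA libraries, 14 from AGO2 pulldown of BNST and 25 from blood, gave the levels of target genes, in BNST as AGO2-bound message.

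A miRNA guides an Argonaute protein to messenger RNAs that pair with its seed, and the bound messages are repressed. The miR-99/100 family is an old animal miRNA family with few conserved sites in 3′ UTRs, of which the kinase gene Mtor and the receptor gene Igf1r are textbook targets. The miR-125 family is related to the worm timing gene lin-4, is abundant in the nervous system and pairs with many more messages, among them Lin28 genes and the NMDA receptor gene Grin2a. In mammals the genes of both families lie beside let-7 genes, so that 1 primary transcript can yield a miR-99/100, a let-7 and a miR-125 member.

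The mature sequences set the members apart, and the seed, bases 2 to 8 counted from the 5′ end, is printed in capitals because it chooses the targets. Sequences and positions were taken from RefSeq on the GRCm38.p6 build, and every site lies on the plus strand. The 3 members with the miR-99/100 seed are shown first. The mature sequence of miR-99a-5p lies at chr16:77598940-77598961 in an intron of Mir99ahg, that of miR-100-5p at chr9:41531437-41531458 in an intron of 3110039I08Rik, and that of miR-99b-5p at chr17:17830194-17830215 in an intron of Spaca6.
miR-99a-5p: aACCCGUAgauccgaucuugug
miR-100-5p: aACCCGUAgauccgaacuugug
miR-99b-5p: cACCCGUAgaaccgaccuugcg

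Counted from the 5′ end, with the base of miR-99a-5p first, miR-100-5p differed from it by U16A alone, and miR-99b-5p differed by A1C, U11A, U16C and U21C. All of these lie outside the seed. The opposite strand of the Mir99b hairpin, miR-99b-3p at chr17:17830232-17830253, has a seed of its own, which miR-99a-3p shares.
miR-99b-3p: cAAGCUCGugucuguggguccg
miR-99a-3p: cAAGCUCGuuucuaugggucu

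The miR-125 members share their first 13 bases and part after them. miR-125a-5p lies at chr17:17830817-17830840 in an exon of Spaca6. The miR-125b-5p sequence is identical in 2 genes, Mir125b-1 at chr9:41581940-41581961 in an intron of 3110039I08Rik and Mir125b-2 at chr16:77646279-77646300 in an intron of Mir99ahg. miR-351-5p, no member by name, carries the same seed and is shown for that reason.
miR-125a-5p: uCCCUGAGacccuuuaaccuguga
miR-125b-5p: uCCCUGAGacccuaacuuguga
miR-351-5p: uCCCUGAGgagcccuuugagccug

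The 3 clusters differ in length. From the first to the last mature sequence, Mir99b, Mirlet7e and Mir125a span 683 bases of chromosome 17. The other clusters, Mir99a with Mirlet7c-1 and Mir125b-2 on chromosome 16 and Mir100 with Mirlet7a-2 and Mir125b-1 on chromosome 9, span 47400 and 50565 bases.

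The BNST miRNA libraries held 3173294 to 9404828 recovered reads and the blood miRNA libraries 6916739 to 10113657. The mRNA libraries held 3701281 to 10659882 reads in BNST and 9751603 to 15878495 in blood. The label of brain tissue was checked on a list of neuronal miRNAs, all 3 of which were listed in BNST with a summed level of 14.29 to 15.05 on the log2 CPM scale (CPM, counts scaled to a common library size), whereas none of the 3 was listed in blood. In the D2 blood tables, the labels and the column names disagreed for 1 control and 1 susceptible mouse, replicate 2 of each group. Groups follow the labels, and member results that rest on these mice are given under both groupings.

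In BNST the members ran from among the most to among the less abundant AGO2-bound miRNAs. mmu-miR-125a-5p was 7th of 788 rows, with a mean of 14.94 log2 CPM, 118402 to 282245 reads and 2.61 to 3.76% of all reads in a pool. mmu-miR-99b-5p was 36th at 12.67, mmu-miR-100-5p 113th at 9.57 and mmu-miR-99a-5p 165th at 8.21 log2 CPM. The minor strand miR-99b-3p was 201st at 7.28 log2 CPM. The rows of miR-125b-5p were 283rd and 363rd, at 5.50 and 4.07 log2 CPM, with 141 to 514 and 46 to 180 reads.

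This order held in each of the 13 pools. Between neighbours the log2 CPM gap was smallest from miR-99a-5p to miR-99b-3p, 0.93 ± 0.41 (SD, n = 13), and largest from miR-99b-5p to miR-100-5p, 3.10 ± 0.21. The low level of miR-125b-5p stood against its own opposite strands, since miR-125b-1-3p was 92nd at 10.12 and miR-125b-2-3p 110th at 9.62 log2 CPM. The levels of miR-125b-5p are therefore given as the table holds them, and reads that fit both of its copies were divided in a way not given in the sources used here.

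**Figure D1:**
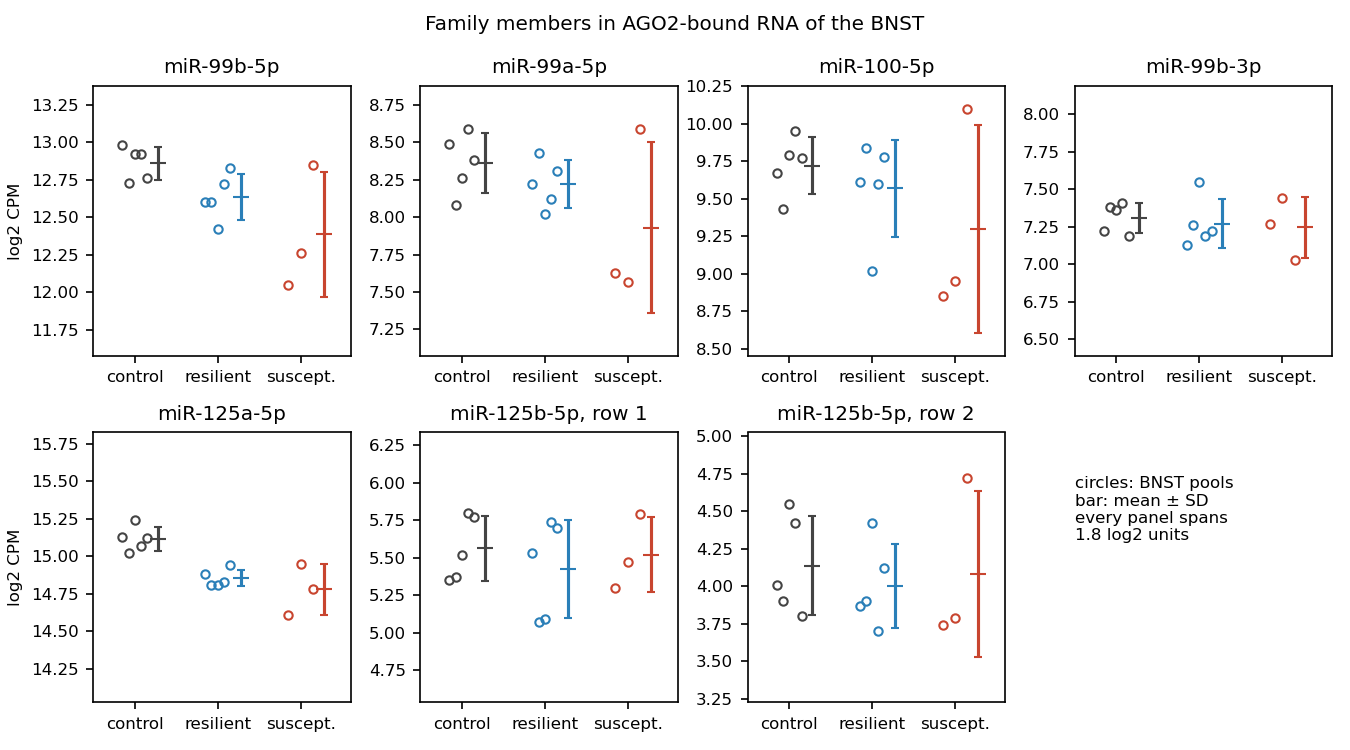
Level of each member in AGO2-bound small RNA of BNST, in log2 CPM on the vertical axis, by group on the horizontal axis. Circles are pools (5 control, 5 resilient, 3 susceptible), bars the mean with SD, and every panel spans the same range of log2 units; for miR-125a-5p all control pools (15.02 to 15.24) lie above all other pools, and 1 susceptible pool lies far above the other two for miR-100-5p.

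The comparison of defeated with control pools asked which AGO2-bound miRNAs differ after defeat, and whether susceptible and resilient mice differ. miR-125a-5p stood at 15.13, 15.02, 15.24, 15.07 and 15.12 log2 CPM in the control pools. It stood at 14.88, 14.81, 14.81, 14.83 and 14.94 in resilient pools and at 14.61, 14.95 and 14.78 in susceptible pools. Neither defeated group overlapped the controls, while the defeated groups overlapped each other. As BNST is bulk tissue, fewer cells of a type and less RNA per cell cannot be told apart, and in a pulldown neither can less miRNA and less miRNA on AGO2.

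A row was called where limma's moderated test gave an unadjusted p under 0.05 and the groups differed by at least 1.2-fold. Between susceptible and control pools miR-125a-5p was called lower, by 0.34 on the log2 scale (SE 0.0993, 95% interval −0.54 to −0.13, limma p = 0.00327, adjusted p = 0.602), with an exact permutation p over pools of 0.0179, the smallest that 5 against 3 pools allow. Between resilient and control pools the difference of −0.26 (SE 0.086, limma p = 0.00718, adjusted p = 0.27) was 1.198-fold and so just short of the fold limit, with an exact permutation p of 0.00794, the smallest that 5 against 5 allow. Leaving out resilient pool 1 or 5 or control pool 2 or 4 moved this difference past the limit, to between −0.28 and −0.27.

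miR-99b-5p, from the same cluster as miR-125a-5p, stood at 12.98, 12.73, 12.92, 12.92 and 12.76 log2 CPM in control pools. It stood at 12.60, 12.60, 12.42, 12.72 and 12.83 in resilient pools and at 12.05, 12.26 and 12.85 in susceptible pools. Both defeated groups overlapped the controls by a single pool, resilient pool 5 and susceptible pool 4. Susceptible against control pools gave a called difference of −0.48 (SE 0.144, 95% interval −0.78 to −0.18, limma p = 0.00382, adjusted p = 0.602, exact permutation p = 0.0536). Resilient against control pools gave −0.23 (SE 0.125, limma p = 0.0844, adjusted p = 0.496, exact permutation p = 0.0317), which was not called.

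miR-99a-5p and miR-100-5p differ by 1 base and varied together from pool to pool. miR-99a-5p stood at 8.49, 8.08, 8.26, 8.59 and 8.38 log2 CPM in control pools, at 8.22, 8.43, 8.02, 8.12 and 8.31 in resilient pools and at 7.63, 7.57 and 8.59 in susceptible pools. miR-100-5p stood at 9.67, 9.43, 9.79, 9.95 and 9.77 in control pools, at 9.61, 9.84, 9.02, 9.60 and 9.78 in resilient pools and at 8.85, 8.95 and 10.10 in susceptible pools. For both miRNAs, susceptible pools 1 and 2 lay below every control pool and susceptible pool 4 at or above the highest control pool. The susceptible difference from control was called for miR-99a-5p, −0.43 (SE 0.191, 95% interval −0.83 to −0.03, limma p = 0.0358, adjusted p = 0.884, exact permutation p = 0.179), and not for miR-100-5p, −0.42 (SE 0.23, 95% interval −0.90 to 0.06, limma p = 0.0836, adjusted p = 0.933, exact permutation p = 0.25).

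In all, 3 of the 7 rows were called between susceptible and control pools, each lower, where 4.7% of all 788 rows were called and 3.17% were called lower. By adjusted p under 0.05 none of the 788 rows was called with limma in this comparison, and 39 had an unadjusted p under 0.05. Between resilient and control pools 0 of 7 rows were called against 9.52% of all rows, and between susceptible and resilient pools 0 of 7 against 3.93%. Without susceptible pool 1, none of the 7 rows was called between susceptible and control pools, with differences of −0.31 for miR-99b-5p, −0.25 for miR-125a-5p and −0.28 for miR-99a-5p.

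Without susceptible pool 4 the differences from control grew to −0.71 for miR-99b-5p, −0.76 for miR-99a-5p and −0.82 for miR-100-5p. Each then passed an adjusted p under 0.05 (limma, adjusted p = 0.0136, 0.0265 and 0.0298), and miR-125a-5p stood at −0.34. In the same fit miR-100-5p, miR-99a-5p and miR-99b-5p were also called lower in susceptible than in resilient pools, with differences of −0.67, −0.62 and −0.48. This fit kept only susceptible pools 1 and 2. It left out the pool that stood highest of its group for miR-99b-5p, miR-99a-5p and miR-100-5p, so these adjusted p-values rest on that choice. No label sets pool 4 apart.

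The other 3 rows gave no called difference in any comparison. miR-99b-3p, the opposite strand of miR-99b-5p, had group means of 7.31 ± 0.10 (SD, n = 5), 7.27 ± 0.16 (n = 5) and 7.25 ± 0.20 (n = 3) log2 CPM in control, resilient and susceptible pools, and the susceptible difference of −0.07 had a 95% interval of −0.35 to 0.22. The rows of miR-125b-5p gave susceptible differences of −0.04 (95% interval −0.48 to 0.40) and −0.05 (−0.66 to 0.56), so that a difference of the size seen for miR-125a-5p lay inside both intervals. The signs of these small susceptible differences turned with the scaling, as all 3 rows were above 0 when scaled to recovered reads.

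**Figure D2:**
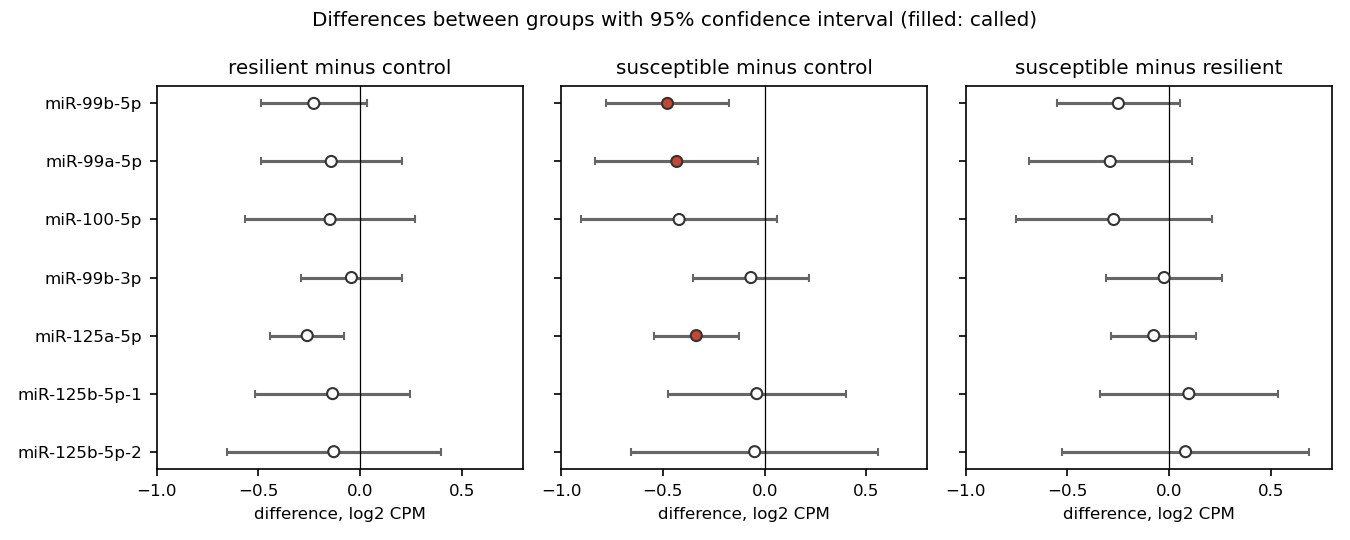
Difference in log2 CPM with its 95% interval for each member row, in 3 panels for resilient minus control, susceptible minus control and susceptible minus resilient BNST pools. Filled points were called; these are miR-125a-5p (−0.34), miR-99b-5p (−0.48) and miR-99a-5p (−0.43) in the susceptible minus control panel, and the other panels have none.

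The members together took 4.11 to 4.65% of the reads of a control pool, 3.57 to 3.94% of a resilient pool and 3.14 to 3.86% of a susceptible pool. Most of this share was miR-125a-5p. No defeated pool reached the lowest control pool.

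The let-7 members of the same clusters followed another order of groups. let-7e-5p, which lies between Mir99b and Mir125a, was the 3rd most abundant row. It stood at 16.37, 16.36, 16.32, 16.34 and 16.28 log2 CPM in control pools, at 15.58, 16.16, 15.81, 16.08 and 16.16 in resilient pools and at 16.02, 16.23 and 16.47 in susceptible pools. All resilient pools lay below all control pools, and the susceptible pools ranged from within the resilient pools to above the controls. It was called lower in resilient than in control pools, by 0.37 on the log2 scale (SE 0.118, limma p = 0.00536, adjusted p = 0.257, exact permutation p = 0.00794), and its susceptible difference of −0.09 (95% interval −0.38 to 0.20) was not called.

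let-7c-5p and let-7a-5p, the partners of miR-99a-5p and miR-100-5p, each have 2 rows for identical copies. Of these copies only Mirlet7c-1 and Mirlet7a-2 lie in the clusters, so reads of these rows can also come from outside them. In resilient against control pools both let-7c-5p rows and 1 of the let-7a-5p rows were called lower, with differences of −0.38, −0.31 and −0.54, and the other let-7a-5p row stood at −0.25, beside 5.58% of all rows called lower. Between susceptible and control pools none of the 4 rows was called. Between susceptible and resilient pools the let-7c-5p rows were called higher, by 0.48 (limma, adjusted p = 0.302) and 0.28, beside 2.03% of all rows called higher.

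None of the opposite strands of the called members was called lower. miR-125a-3p, 222nd at 6.74 log2 CPM, was called higher in susceptible than in control pools by 0.37 (SE 0.169, limma p = 0.0414, adjusted p = 0.884, exact permutation p = 0.0714), where 1.52% of all rows were called higher. miR-99a-3p stood at a susceptible difference of 0.14 and miR-100-3p, with 4 to 43 reads, at 0.23, neither called. The gap between the strands of a hairpin was then taken within each pool, a comparison added after the data had been seen. In it the scaling of a pool cancels.

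For Mir125a the 5p strand exceeded the 3p strand by 8.24, 8.41, 8.49, 8.70 and 8.73 log2 units in control pools, by 7.92, 8.30, 8.23, 7.83 and 8.35 in resilient pools and by 7.84, 7.99 and 7.58 in susceptible pools. Every susceptible pool lay below every control pool. The mean gap was 0.71 lower in susceptible pools (exact permutation p = 0.0179, adjusted p = 0.0951 over 12 comparisons) and 0.39 lower in resilient pools (exact permutation p = 0.0317, adjusted p = 0.0951). The resilient p rose above 0.05 when any 1 of resilient pools 1 and 4 and control pools 3, 4 and 5 was left out.

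For Mir99a the gap was 2.99, 2.58, 2.52, 2.72 and 2.88 log2 units in control pools, 2.28, 2.45, 2.46, 2.59 and 2.85 in resilient pools and 2.13, 1.94 and 2.43 in susceptible pools. Susceptible pool 4, whose miR-99a-5p level was as high as the highest control, here lay below all controls. The mean gap was 0.57 lower in susceptible than in control pools (exact permutation p = 0.0179, adjusted p = 0.0951), a p that rose above 0.05 without susceptible pool 2. For Mir99b the susceptible gaps of 4.78, 4.82 and 5.82 overlapped the control mean of 5.55 ± 0.14 (SD, n = 5), and the difference of −0.41 had an exact permutation p of 0.161. None of the 12 comparisons passed an adjusted p of 0.05.

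**Figure D3:**
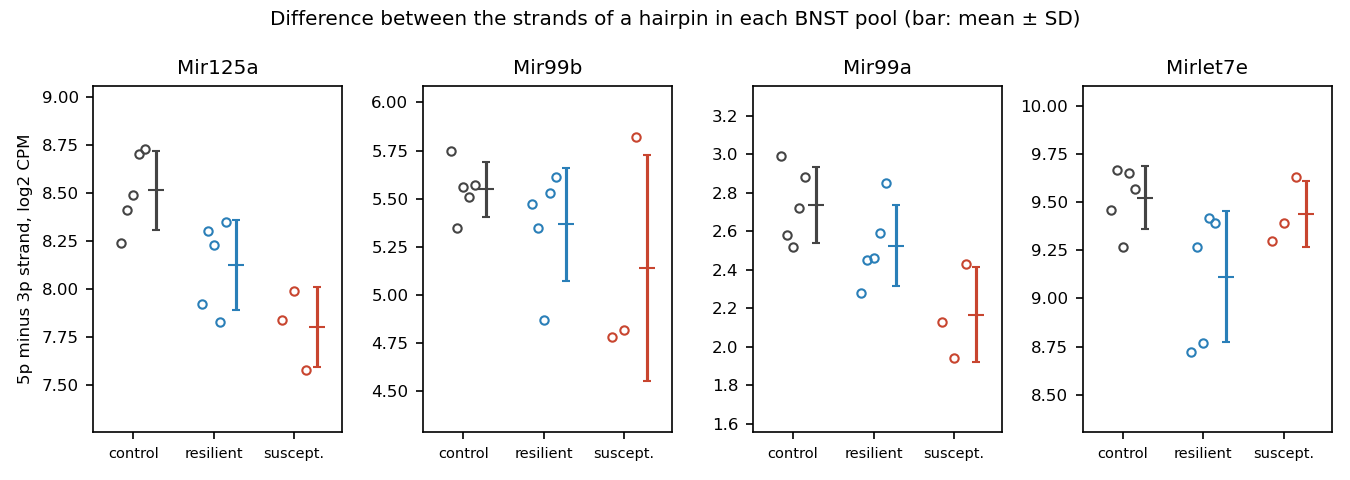
Log2 level of the 5p strand minus that of the 3p strand of the same hairpin in each BNST pool (circles), with the mean and SD of each group, for Mir125a, Mir99b, Mir99a and Mirlet7e. For Mir125a and Mir99a the 3 susceptible pools lie below the 5 control pools, whereas for Mir99b 1 susceptible pool (5.82) lies above the control mean of 5.55.

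The members' deviations from their group means show which of them vary together, here across 13 pools that share scaling and are described with no test. miR-100-5p and miR-99a-5p had Pearson's r = 0.92 and Spearman's rho = 0.84, with r = 0.84 without the 2 pools farthest from the median. miR-99b-5p followed miR-100-5p with r = 0.88 (rho 0.71, and 0.72 without 2 pools), although the genes lie on different chromosomes. miR-99b-5p and miR-99b-3p, cut from 1 hairpin, ran opposite to each other with r = −0.60. miR-125a-5p stayed apart from the other members, with r between 0.01 and 0.37.

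Among all other rows, those most like miR-99b-5p were let-7g-5p (r = 0.93) and miR-409-5p (r = 0.88) beside miR-100-5p. Those most like miR-100-5p and miR-99a-5p were each other and miR-455-5p (r = 0.88 and 0.89). miR-125a-5p had no neighbour of like abundance, its nearest being miR-6769b-5p (r = 0.82), which had a mean of −0.73 log2 CPM.

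Lists of miRNAs that mark other cell types were summed to set beside these results. Deviations of miR-100-5p ran with those of the endothelial list (r = 0.86) and the oligodendrocyte list (r = 0.81), and those of miR-99b-5p with the endothelial list (r = 0.73). For miR-125a-5p the r was 0.48 with the mural list, its largest with any list, 0.29 with the endothelial list and −0.49 with log2 total reads. The mural list also ran with miR-100-5p (r = 0.67) and miR-99b-5p (r = 0.58), and the oligodendrocyte list with miR-99b-5p (r = 0.65). Opposite in sign was the microglial and leukocyte list, with miR-99b-5p (r = −0.59) and miR-99a-5p (r = −0.57). Between groups, both endothelial markers were listed and their summed log2 CPM was 11.83 to 12.27 in control, 12.07 to 12.63 in resilient and 11.93 to 12.42 in susceptible pools. The 3 oligodendrocyte markers summed to 11.19 to 11.50, 10.96 to 11.81 and 11.10 to 11.73. Their part in the differences of the miR-99/100 members was not tested.

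The list of 4 choroid plexus markers, a tissue that borders the ventricle near the BNST, lay at 13.65 to 15.17 in control, 13.79 to 15.15 in resilient and 13.48 to 14.49 in susceptible pools. The neuronal list lay at 14.49 to 15.05, 14.29 to 14.77 and 14.70 to 14.88. The microglial and leukocyte list of 5 lay at 11.94 to 12.38, 11.45 to 12.29 and 11.02 to 12.20, and the mural list of 3 at 13.88 to 14.38, 14.00 to 14.59 and 14.05 to 14.21. The 3 erythroid markers summed to 7.93 to 8.14, 8.01 to 8.61 and 8.02 to 8.19. Their part was not tested either.

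Target genes of the families were taken from lists of reported targets and from the seed match in the 3′ UTR, and were measured in the AGO2-bound mRNA of BNST. As for the miRNAs, a pulldown cannot tell a change in the message from a change in how much of it is on AGO2. The site that pairs with the miR-99/100 seed, TACGGGTA over 8 bases, was in 51 of 21037 3′ UTRs (0.242%), and the miR-125 site CTCAGGGA was in 966 (4.59%), searched on the strand of the message. Of the 21 reported miR-99/100 targets 7 held the 8-base site and 16 its first 7 bases, TACGGGT. Of the 24 reported miR-125 targets 14 held the 8-base site and 19 the 7-base site CTCAGGG.

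All 21 reported miR-99/100 targets were measured, and 9 of them were called in resilient against control pools, 2 higher and 7 lower, where 17.7% of all 16587 genes were called. The same counts, 2 higher and 7 lower, were found in susceptible against control pools, where 18.9% of all genes were called. The list's median log2 difference was −0.113 and −0.149, beside −0.0208 and −0.0108 over all genes. The list holds 6 genes that the study paired with these miRNAs from these samples, so it is not independent evidence of a direction, and of the other 15 genes 4 were called, 2 in each direction. Between susceptible and resilient pools none of the 21 was called, beside 2.14% of all genes.

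Among the other 15 genes, Insm1, a transcription factor of neuroendocrine cells with a 7-base site, stood at 4.29, 4.01, 4.58, 4.45 and 4.45 log2 CPM in control pools. It stood at 3.65, 2.74, 3.68, 3.78 and 3.13 in resilient pools and at 4.33, 2.87, 2.96 and 3.07 in susceptible pools. All resilient pools lay below all controls, and susceptible pool 1 lay among the controls. Insm1 was called lower by 0.96 in resilient (limma, adjusted p = 0.0573) and 1.05 in susceptible pools (limma, adjusted p = 0.0408), both on the log2 scale.

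Bmpr2, a receptor for bone morphogenetic proteins with no site found, stood at 8.33, 8.34, 8.22, 8.15 and 8.18 log2 CPM in control pools, at 8.01, 7.83, 7.98, 8.10 and 7.92 in resilient pools and at 8.09, 7.84, 7.99 and 7.84 in susceptible pools. Neither defeated group overlapped the controls, and it was called lower, with differences of −0.28 and −0.30 (limma, adjusted p = 0.0763 and 0.055). Fgfr3, a fibroblast growth factor receptor with an 8-base site, stood at 6.72, 6.65, 6.99, 6.92 and 6.85 in control pools, at 7.23, 7.16, 7.07, 6.96 and 7.33 in resilient pools and at 7.14, 7.46, 7.18 and 7.05 in susceptible pools. Fgfr3 was called higher by 0.32 and 0.38 (limma, adjusted p = 0.0876 and 0.0512), with no overlap of susceptible and control pools. The textbook targets Igf1r, with an 8-base site, and Mtor, with a 7-base site, were not called in either comparison, at 0.10 and −0.15 for Igf1r and 0.18 and 0.24 for Mtor, which was named after its values were seen. Igf1r is among the 6 genes that the study or its supplement paired with these miRNAs, and the other 5 gave differences of −0.48 and −0.41 for Epdr1, −0.34 and −0.47 for Ntrk2, −0.55 and −0.58 for Ntrk3, −0.34 and −0.46 for Cldn11 and −0.52 and −0.94 for Ppp3ca, all called. Of these 5, Epdr1 and Ntrk3 held an 8-base site and Ppp3ca a 7-base site, while no site was found for Ntrk2 and Cldn11.

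**Figure D4:**
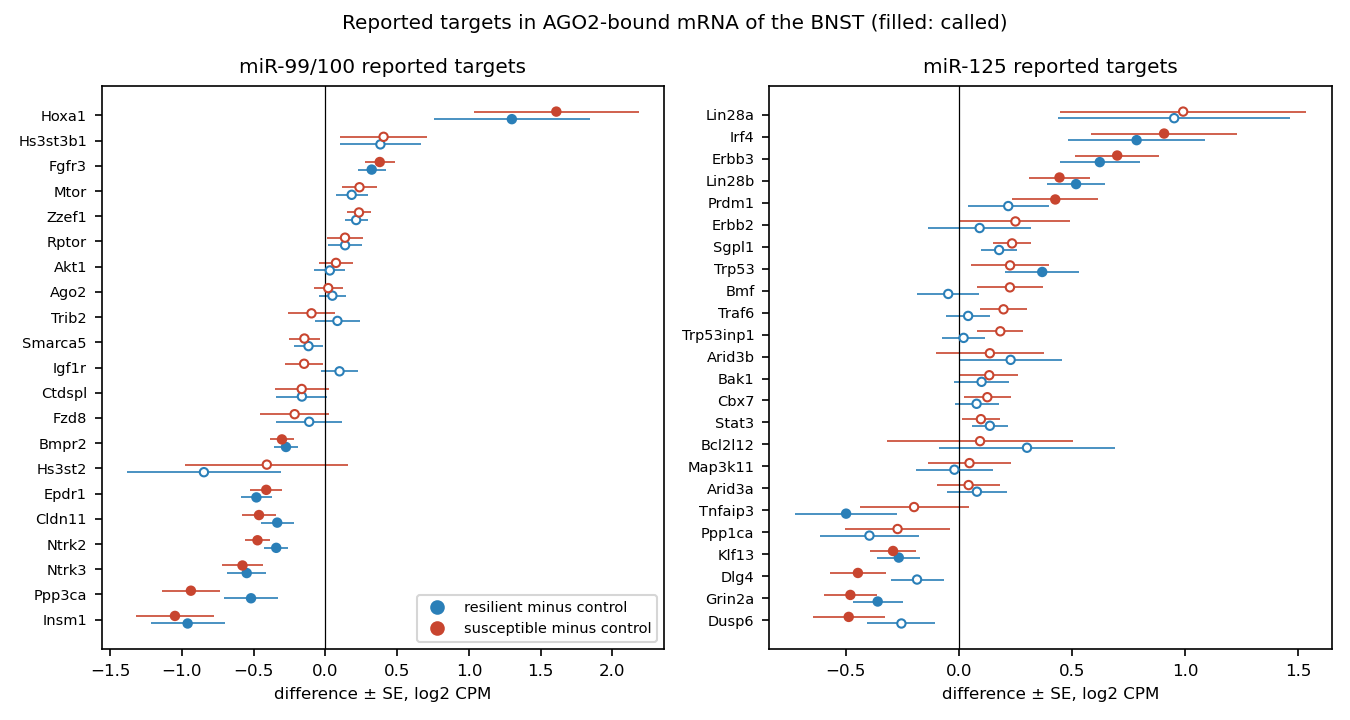
Difference in log2 CPM with its standard error for the reported targets of miR-99/100 (left) and miR-125 (right) in AGO2-bound mRNA of BNST, resilient minus control in blue and susceptible minus control in red. Filled points were called; called genes lie on both sides of 0 in both panels, for example Insm1 (−0.96 and −1.05) and Erbb3 (0.62 and 0.70).

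Of the 24 reported miR-125 targets 7 were called in resilient against control pools, 4 higher and 3 lower (29.2%), and 8 in susceptible against control pools, 4 in each direction (33.3%). The medians were 0.0858 and 0.136. None was called between susceptible and resilient pools. The seed lists lay nearer to the background, with 10 of 41 (24.4%) and 11 of 41 (26.8%) called for miR-99/100, and 128 of 792 (16.2%) and 158 of 792 (19.9%) for miR-125.

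Grin2a, the NMDA receptor subunit with 2 miR-125 sites of 7 bases, stood at 7.74, 7.61, 7.75, 7.76 and 7.56 log2 CPM in control pools. It stood at 7.10, 7.15, 7.52, 7.36 and 7.49 in resilient pools and at 7.42, 7.32, 7.22 and 6.85 in susceptible pools. No defeated pool reached a control pool, and Grin2a was called lower, with differences of −0.36 (limma, adjusted p = 0.0919) and −0.48 (limma, adjusted p = 0.033). Dlg4, the postsynaptic scaffold PSD-95 with no site found, was called lower in susceptible pools, at −0.45 (limma, adjusted p = 0.0523). In resilient pools its difference of −0.19 was not called, nor was that between the defeated groups.

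Lin28b, the let-7 processing inhibitor with an 8-base miR-125 site, stood at 5.69, 5.48, 5.26, 5.15 and 5.08 log2 CPM in control pools, at 5.70, 5.78, 5.61, 6.08 and 6.09 in resilient pools and at 5.67, 5.70, 5.77 and 5.97 in susceptible pools. It was called higher by 0.52 (limma, adjusted p = 0.0473) and 0.44 (limma, adjusted p = 0.0742), with control pool 1 inside the range of both defeated groups. Erbb3, a neuregulin receptor with an 8-base site, stood at 5.81, 5.93, 5.98, 5.98 and 5.88 in control pools, at 6.39, 6.87, 6.06, 6.68 and 6.69 in resilient pools and at 6.66, 6.69, 5.95 and 7.15 in susceptible pools. It was called higher by 0.62 and 0.70 (limma, adjusted p = 0.0669 and 0.045), and susceptible pool 3 lay among the controls. Klf13, with an 8-base site, was called lower, with differences of −0.27 and −0.29, so genes with the same site were called in both directions. Of the host genes measured in BNST, Spaca6 and Mir99ahg were not called, with differences between −0.02 and 0.29.

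In the blood table miR-99a-5p led the members at 42nd of 299 rows with a mean of 8.29 log2 CPM, followed by miR-125a-5p at 51st (7.54), miR-99b-5p at 54th (7.32) and miR-100-5p at 72nd (6.47). miR-125a-5p exceeded miR-99b-5p by 0.22 ± 0.34 (SD, n = 25) and in 19 of 25 mice, a gap smaller than its spread. miR-99a-5p exceeded miR-125a-5p in 24 of 25 mice. The 4 members took 0.0303 to 0.175% of a mouse's reads. BNST and blood tables were made with different library kits and scaled apart, so levels are not compared between them.

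**Figure D5:**
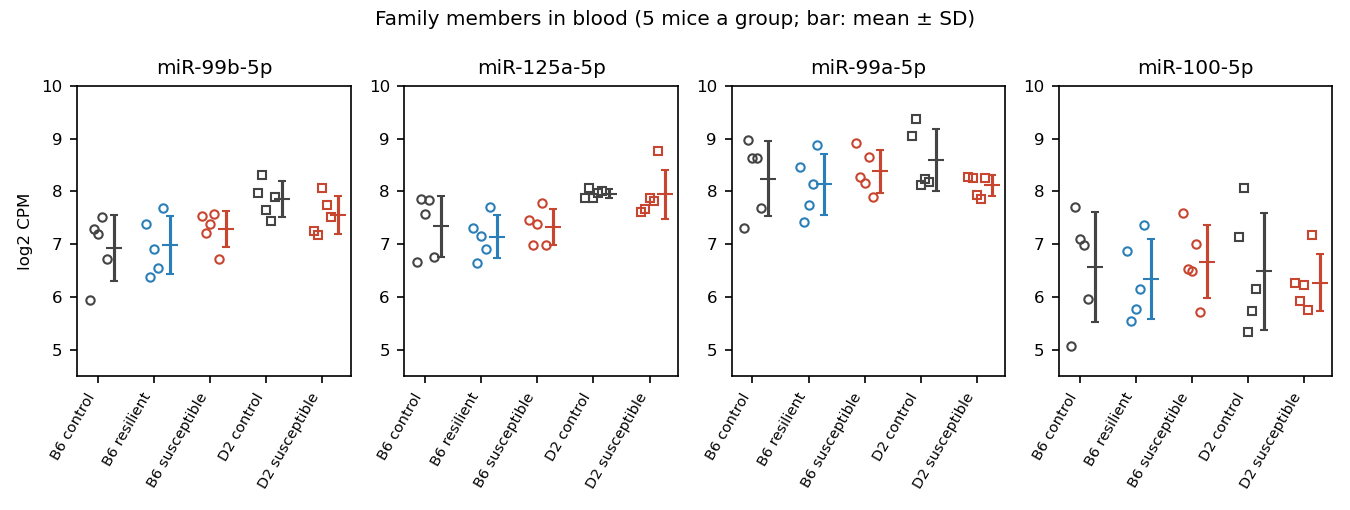
Level of the 4 members in blood, in log2 CPM, for 5 mice in each of the B6 control, resilient and susceptible groups (circles) and the D2 control and susceptible groups (squares), with mean and SD. For miR-125a-5p the D2 control mice (7.87 to 8.06) lie above all B6 control mice, and 1 D2 susceptible mouse (8.76) lies above all others.

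After defeat none of the 4 members was called in blood of either strain. In B6 mice 4.35% of all rows were called between resilient and control mice, 4.01% between susceptible and control mice and 3.01% between susceptible and resilient mice. In D2 mice 8.7% were called between susceptible and control mice, and 4.35% had a called strain-by-defeat difference. No row of the table had an adjusted p under 0.05 in these comparisons, and 13, 12, 9, 27 and 13 rows had an unadjusted limma p under 0.05.

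Of the strain-by-defeat differences that of miR-99b-5p was nearest to a call. It stood at 5.94, 7.29, 7.19, 7.51 and 6.72 log2 CPM in B6 control mice, at 7.54, 7.22, 7.38, 7.58 and 6.72 in B6 susceptible mice, at 7.98, 8.32, 7.65, 7.44 and 7.90 in D2 control mice and at 7.26, 7.17, 8.06, 7.75 and 7.52 in D2 susceptible mice. All of these groups overlapped within a strain. The susceptible difference was 0.36 in B6 (95% interval −0.21 to 0.93) and −0.31 in D2 (−0.87 to 0.26), and the difference between strains of −0.66 (−1.47 to 0.14) was not called.

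The D2 values rested on the 2 mice whose labels and column names disagree. With the groups of the column names the D2 difference became 0.16 for miR-99b-5p, 0.15 for miR-125a-5p, where it was −0.01, and 0.64 for miR-100-5p, where it was −0.22. For miR-99a-5p the D2 difference was −0.49 by the labels (95% interval −1.13 to 0.15, exact permutation p = 0.159), the largest of the members within a strain, and −0.035 by the column names. D2 control mouse 2, 1 of the pair, had the highest levels of all 25 mice for miR-99b-5p (8.32), miR-99a-5p (9.38) and miR-100-5p (8.07). miR-125a-5p gave −0.02 (95% interval −0.53 to 0.49) between B6 susceptible and control mice, and miR-100-5p had wider intervals, such as −1.25 to 0.80 between B6 resilient and control mice.

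Between the strains, without defeat, the cluster on chromosome 17 was higher in D2. miR-125a-5p stood at 6.67, 7.86, 7.57, 7.83 and 6.76 log2 CPM in B6 control mice and at 7.87, 8.06, 7.87, 7.98 and 8.01 in D2 control mice. Every D2 control mouse lay above every B6 control mouse, the closest pair being 7.87 and 7.86. The difference of 0.62 was called (SE 0.248, 95% interval 0.11 to 1.13, limma p = 0.0194, adjusted p = 0.0891, exact permutation p = 0.00794, the smallest possible).

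miR-99b-5p was higher in D2 by 0.93 (SE 0.275, 95% interval 0.363 to 1.497, limma p = 0.00242, adjusted p = 0.0168), with 1 D2 mouse below the highest B6 mouse, and let-7e-5p of the same cluster by 0.77 (SE 0.217, limma p = 0.0016, adjusted p = 0.0129). miR-99a-5p at 0.36 (95% interval −0.28 to 0.99) and miR-100-5p at −0.07 (−1.10 to 0.95), and their let-7 partners, were not called. Thus 2 of 4 members were called, both higher, where 25.4% of all rows were called and 13.4% were called higher. miR-351-5p, which shares the miR-125 seed, was called higher by 0.99 (limma p = 0.014, adjusted p = 0.0722, exact permutation p = 0.0238) on 6 to 41 reads. It was also called higher in B6 susceptible than in B6 control mice, by 0.94 (adjusted p = 0.939, exact permutation p = 0.0476), a call lost without B6 control mouse 5 (0.80) or B6 susceptible mouse 1 (0.80).

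With the groups of the column names the strain differences were 0.70 for miR-99b-5p (limma, adjusted p = 0.082), 0.54 for miR-125a-5p (adjusted p = 0.142) and 0.58 for let-7e-5p (adjusted p = 0.0579), all still called, but none of them then passed an adjusted p of 0.05 and the groups of miR-125a-5p overlapped. The call of miR-125a-5p was lost when B6 control mouse 1 or 5 was left out, at 0.48 or 0.45, and with sample weights (0.42) or quantile normalization (0.43), whereas miR-99b-5p kept its call under all scalings. Sample titles carry a prefix that belongs to 1 strain each, so prefix and strain cannot be told apart. Control means of miR-99b-5p were 6.61 and 7.14 log2 CPM in the B6 prefixes and 7.98, 8.32 and 7.66 in the D2 prefixes. Those of miR-125a-5p were 7.26 and 7.39 against 7.87, 8.06 and 7.95. By these means no D2 prefix reached down to a B6 prefix for either miRNA. However, prefixes ED3 and ED4, given first for D2, hold 1 control mouse each. That of ED4 is D2 control mouse 2, whose label and column name disagree. By the column names the ED4 control stood at 7.17 for miR-99b-5p and 7.67 for miR-125a-5p.

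Marker lists of blood cells are given for the control groups of the strains, whose ranges overlapped for each list. The leukocyte list, with 3 of 5 markers listed, summed to 12.07 to 13.13 log2 CPM in B6 and 10.51 to 12.14 in D2 control mice. The summed CPM of 5 platelet genes in the mRNA was 1410 to 5360 in B6 and 3310 to 12800 in D2. The mural list, with 3 of 3 listed, lay at 9.55 to 11.39 and 10.02 to 11.50, and the erythroid list, with 2 of 3 listed, at 18.07 to 18.70 and 17.81 to 18.66. Their part in the strain difference was not tested.

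Deviations from the group means were compared in blood as in BNST. Over 25 mice miR-100-5p and miR-99a-5p had r = 0.94 (rho 0.94, and 0.92 without 2 mice). miR-99b-5p and its cluster partner let-7e-5p had r = 0.90, while miR-99a-5p and let-7c-5p ran opposite to each other, with r = −0.71. The blood rows of let-7c-5p and let-7a-5p do not separate copies inside the clusters from those outside. miR-125a-5p had r = 0.72 with miR-99b-5p of its own cluster and 0.72 with miR-100-5p of another. let-7a-5p ran opposite to miR-99a-5p with r = −0.79 and opposite to miR-100-5p with r = −0.70. The mural list ran with miR-100-5p, miR-99a-5p and miR-99b-5p at r = 0.79, 0.79 and 0.78 and with miR-125a-5p at 0.45, or 0.85 within mice of 1 title prefix and group. The choroid plexus list, with 3 of 4 listed, ran with miR-100-5p, miR-99a-5p, miR-99b-5p and miR-125a-5p at r = 0.70, 0.71, 0.65 and 0.70. The endothelial list, with 1 of 2 listed, gave 0.55, 0.69, 0.27 and 0.47 in the same order. The erythroid list gave −0.08, 0.06, −0.48 and −0.06. Log2 total reads gave r between −0.16 and 0.15.

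Within mice of 1 title prefix and group, 21 mice in all, the r of miR-125a-5p was 0.92 with miR-100-5p and 0.91 with miR-99b-5p. The r of miR-100-5p and miR-99a-5p was then 0.95. The rows most like miR-100-5p outside the family were miR-145a-5p and miR-411-5p (both r = 0.92), and those most like miR-99b-5p were let-7e-5p and miR-10b-5p (r = 0.86). For miR-125a-5p the most similar row was miR-204-5p (r = 0.80), itself on the choroid plexus list.

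The reported targets were then read in blood mRNA. After defeat, 0 of 15 measured miR-99/100 targets and 0 of 19 miR-125 targets were called in B6 resilient against control (2.11% of all genes called), in B6 susceptible against control (4.5%) and in D2 susceptible against control mice (1.57%). Between B6 susceptible and resilient mice, where 2.03% of genes were called, Ctdspl alone was called, at 0.68 (limma, adjusted p = 1).

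Between D2 and B6 control mice 26.4% of all genes were called, and the lists gave 5 of 15 miR-99/100 targets (33.3%, all higher, where 15% of genes were called higher) and 6 of 19 miR-125 targets (31.6%, 3 in each direction). Klf13, a transcription factor and miR-125 target, stood at 3.54, 4.31, 3.78, 3.51 and 3.64 log2 CPM in B6 and at 5.63, 5.86, 5.77, 5.86 and 5.43 in D2 control mice. It was higher by 1.95 (limma, adjusted p = 9.08e-07). The lower call of Klf13 after defeat was in AGO2-bound mRNA of BNST, which is another tissue, measure and comparison.

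Cbx7, a Polycomb gene with 2 miR-125 sites of 7 bases, stood at 3.16, 3.34, 2.90, 2.56 and 3.19 in B6 and at 0.85, 2.28, 1.97, 1.22 and 0.85 in D2 control mice, a difference of −1.59 (limma, adjusted p = 1.19e-05). Trib2, a pseudokinase gene with a 7-base miR-99/100 site, stood at 6.19, 5.76, 5.90, 5.58 and 5.73 in B6 and at 6.56, 6.88, 6.48, 6.95 and 6.34 in D2, a difference of 0.81 (limma, adjusted p = 9e-04). These 3 genes, named for their low p, did not overlap between strains under either grouping of the D2 mice. How many of all genes lacked overlap was not counted, and 15.5% of all genes had an adjusted p under 0.05 with limma. Epdr1 and Bmpr2 were also higher in D2, by 1.31 and 1.08 (limma, adjusted p = 0.0082 and 0.0104). Mir99ahg, the host transcript of miR-99a and miR-125b-2, was higher in D2 by 1.41 (limma, adjusted p = 0.00708) on 5 to 61 reads, while miR-99a-5p itself was not called.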

How the data were processed

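The deposited values were log2 CPM for miRNAs and genes, made by the authors from read counts with limma's voom. By the study's methods, small RNA reads were aligned and quantified with miRDeep2 against miRBase, using Bowtie, and mRNA reads were aligned with STAR and counted per gene with HTSeq. BNST and blood small RNA came from different kits and were normalized apart. How reads shared by identical miRNA copies were counted is not given in the sources used here. By the study's methods, its BNST miRNA data were adjusted for detected surrogate variables and its AGO2-bound mRNA data for experimental cohort. No such adjustment is described for the blood data. The deposited values of BNST and blood alike gave whole reads, so none of them carries such an adjustment. The main fits here added none, and so differ from the study's for BNST.

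From the log2 values, whole reads were recovered to a tolerance of 0.0001 reads and gave the depths. Groups were compared with limma 3.58.1 (R 4.3.3), a moderated test with a mean-variance trend fitted over all groups of a table, at an unadjusted p under 0.05 and a 1.2-fold difference. Benjamini-Hochberg adjusted p-values were taken over the whole table. Single values were tested with two-sided exact permutation tests (Python 3.11.15, scipy 1.17.1). SE and intervals are limma's.

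Members and gene lists were chosen with earlier results of these data known. The text names every member, its cluster partners, opposite strands and seed relatives, the 4 called targets of lowest p at most per list and comparison, Igf1r, the genes the study named and the host genes. Of the 3 most similar rows per member, only some are named. P-values measure the spread between these pools and mice. No library was a copy of another in its group (lowest chi-square per degree of freedom 3.867), and pairs across groups were not checked. The scripts were tested on simulated data. Alternatives were other scalings, weights, added reads, a filter on low levels, the replicate block, the title prefix, left-out replicates and, added after seeing the data, the groups of the D2 column names and the strand gap.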

Additional observations from a re-analysis of the deposited data

Results flagged for a closer look

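1 value stood apart from its group. In blood, miR-125a-5p of D2 susceptible mouse 5 was at 8.76 log2 CPM, while the other 4 mice of the group lay between 7.62 and 7.88. Its gap to the nearest mouse was 0.771 of the group's range, above Dixon's critical value of 0.710 for 5 samples. Of 34 groups tested, 1 was flagged, where chance flags about 1 in 20, and 7 groups of 3 were not tested. This mouse is the only D2 susceptible mouse with its title prefix, and its miR-100-5p level of 7.17 was also the highest of its group.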

How the results depend on the processing

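Depth was not the limit for the abundant members, but the 3 susceptible BNST libraries limit that comparison, since 5 against 3 pools cannot give an exact permutation p below 0.0179. Rows with few reads, such as miR-125b-5p, miR-100-3p and miR-351-5p, have wide intervals. The deposited blood groups of D2 depend on 2 mice whose labels and column names disagree, and title prefix and strain cannot be told apart in blood. Differences are on the log2 scale and the cause of a change with a setting was not tested.

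The calls of single members under other settings stayed on the same side with the same direction in 418 cases, reversed in 27, gained a call in 5 and lost it in 8. With 1 replicate left out the counts were 801, 53, 10 and 9. The reversed values are not all of small differences. With the groups of the column names the D2 difference went from −0.31 to 0.16 for miR-99b-5p and from −0.22 to 0.64 for miR-100-5p. In BNST, miR-99b-3p (reported at −0.04 for resilient minus control, −0.07 for susceptible minus control and −0.02 for susceptible minus resilient) became 0.000203, 0.00345 and 0.00325 when scaled to recovered reads, and the last became 0.058 with sample weights and 0.00194 with quantile normalization. The miR-125b-5p rows for susceptible minus control (−0.04 and −0.05) became 0.032 and 0.022 when scaled to recovered reads, the first 0.023 with quantile normalization and the second 0.000533 with voom weights. For susceptible minus resilient (0.10 and 0.08) they became −0.075 and −0.039 with sample weights.

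Numbers of the BNST pools showed no clear pairing of the samples. None of 11 same-numbered pairs of miRNA libraries had a correlation of deviations over 0.1 (−0.101 to 0.096). Among mRNA libraries 2 of 13 such pairs did (−0.172 to 0.14). With so few pools in a group, these values cannot show whether same-numbered pools had a common origin. With the replicate block, the counts of called members stayed at 0, 3 and 0, miR-99b-3p for susceptible minus resilient became 0.00145, the second miR-125b-5p row for susceptible minus control became 0.054, miR-125a-3p lost its call at 0.31, and the miR-99/100 seed list between susceptible and resilient pools went from 1 called gene to 0. The block changed no other member's call and moved no other count by over 1.5 times.

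Leaving out 1 replicate each gave these ranges in BNST. For miR-99b-3p, susceptible minus control spanned −0.16 to 0.039 and susceptible minus resilient −0.12 to 0.082. For miR-125a-5p, susceptible minus resilient spanned −0.16 to 0.00733. The first miR-125b-5p row spanned −0.17 to 0.070 and −0.037 to 0.21, and the second −0.37 to 0.12 and −0.24 to 0.25. let-7e-5p spanned −0.21 to 0.018 for susceptible minus control. The count of called members was 0 to 2 for resilient against control (2 without resilient pool 5, 1 without resilient pool 1 or control pool 2 or 4), 0 to 4 for susceptible against control (0 without susceptible pool 1, 4 without pool 4) and 0 to 3 for susceptible against resilient (3 without susceptible pool 4). Quantile normalization left 1 called member for susceptible against control, where miR-125a-5p stood at −0.13, and gave 1 for susceptible against resilient, where sample weights gave 3.

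In blood, the B6 resilient minus control difference of miR-99b-5p (0.05) became −0.25 with sample weights and −0.082 with quantile normalization, and spanned −0.20 to 0.20 with 1 mouse left out. The D2 susceptible minus control difference of miR-125a-5p (−0.01) became 0.00571 when scaled to recovered reads, 0.00625 with median-ratio factors, 0.12 with quantile normalization, 0.14 with the title prefix as a block and 0.15 with the column names, and spanned −0.21 to 0.073. With the column names miR-99b-5p in D2 became 0.16, miR-100-5p 0.64 and its strain-by-defeat difference 0.53. With sample weights the B6 susceptible minus control differences of miR-99a-5p (0.13) and miR-100-5p (0.10) became −0.11 and −0.21. The strain difference of miR-100-5p (−0.07) became 0.095 when scaled to recovered reads and 0.021 with quantile normalization.

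Leaving out 1 mouse gave −0.18 to 0.11 for miR-125a-5p between B6 susceptible and control mice and −0.20 to 0.17 for its strain-by-defeat difference. miR-99a-5p spanned −0.35 to 0.068 between B6 resilient and control and −0.10 to 0.32 between B6 susceptible and control mice. miR-100-5p spanned −0.59 to 0.063 and −0.27 to 0.39 in these, −0.51 to 0.18 in D2, −0.47 to 0.22 between strains and −0.61 to 0.071 for the strain-by-defeat difference. The count of called members was 1 to 2 between strains (1 without B6 control mouse 1 or 5, and 1 with sample weights or quantile normalization) and 0 to 1 for the strain-by-defeat difference (1 without B6 control mouse 4, where miR-99b-5p stood at −0.81).

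Counts of called target genes moved as follows in BNST. The reported miR-125 targets between resilient and control pools were 7, and 4 to 10 with 1 pool left out (4 without control pool 2 or resilient pool 2), and the miR-125 seed list was 128, and 100 to 197 (197 without resilient pool 3). Between susceptible and resilient pools the reported miR-125 targets were 0, 1 when scaled to recovered reads and 0 to 2 with 1 pool left out, the reported miR-99/100 targets 0 to 2, the miR-99/100 seed list 0 to 2, and the miR-125 seed list 15, and 8 to 42 (42 without resilient pool 3).

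In blood, with 1 mouse left out, B6 resilient against control gave 0 to 3 reported miR-99/100 targets (3 without resilient mouse 5), 0 to 2 of the miR-99/100 seed list and 10 to 61 of the miR-125 seed list (18 as reported, 61 without resilient mouse 5, 5 when scaled to recovered reads). B6 susceptible against control gave 0 to 2 reported miR-125 targets, 0 to 1 reported miR-99/100 targets, 0 to 5 of the miR-99/100 seed list (4 as reported, 1 when scaled) and 19 to 62 of the miR-125 seed list (40 as reported, 8 when scaled). B6 susceptible against resilient gave 0 to 1, 0 to 2, 0 to 2 and 14 to 26 in the same order, and 0, 0 and 3 for the last 3 lists when scaled. D2 susceptible against control gave 0 to 1, 0 to 1, 0 to 2 and 10 to 26, with 1, 1 and 8 for the last 3 lists when scaled, and with 1, 1 and 40 for the reported miR-125, miR-99/100 seed and miR-125 seed lists with the column names. Between strains the reported miR-125 targets were 6, and 3 when scaled, and 3 to 7 with 1 mouse left out (3 without B6 control mouse 5).

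Scaling to recovered reads moved the share of higher among called rows from 41.3 to 55.8% in resilient against control BNST pools, from 32.4 to 52.8% in susceptible against control, from 51.6 to 62.9% in susceptible against resilient and from 52.6 to 67.1% between strains in blood. Quantile normalization gave 54.4 and 45.7% in the first 2 of these. Among genes in BNST the share went from 51 to 71.4% in susceptible against control and from 44.5 to 77.1% in susceptible against resilient pools. In blood mRNA it went from 40.2 to 14.4% for B6 resilient against control, from 66.2 to 54.1% for B6 susceptible against control, from 55.3 to 75.5% for B6 susceptible against resilient and from 56.7 to 74.7% between strains, where the median of all genes moved from 0.00742 to 0.175.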
